A study of Mus musculus with 7 samples.

Results

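Imprinted genes are genes whose RNA is made mainly from the copy inherited from one parent. A list of 37 mouse imprinted genes was followed through 3 compartments of the embryonic kidney and a collecting duct cell line. A gene counted as measured where at least 1 probe set of the array was annotated to that gene alone, and 33 of the 37 were, among 18193 genes measured in all. By what is known of their imprinting, 18 of the 33 were classed as expressed from the paternal copy and 13 from the maternal copy. The other 2 (Gnas and Blcap) give transcripts of both kinds or are imprinted in some tissues, and were classed as mixed. The first 2 classes can also hold genes imprinted in some tissues only, and for Calcr maternal expression is known in brain. The arrays measure total RNA of both copies, so parental class is background here and was not measured. H19, Rtl1, Dio3 and Zrsr1 had no such probe set. The single H19 probe set also lists Mir675.

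The tissues were microdissected from mouse kidneys at stage E12.5, when the ureteric bud, an epithelial tube, has entered the metanephric mesenchyme and begun to branch. The series set epithelial against non-epithelial kidney cells. The groups were metanephric mesenchyme (2 arrays), which holds the nephron progenitors and stroma, ureteric bud stalk (2 arrays) and ureteric bud tip (2 arrays). The fourth group is 1 array of mIMCD-3, a mouse line of the inner medullary collecting duct, which is an adult derivative of the bud. It was a freshly isolated subclone grown to confluency in DMEM, so it stands for 1 clone in culture. The labels name no strain, genotype or treatment, and call the tissue arrays biological replicates without saying how many embryos went into each. The mIMCD-3 array was added to tissue arrays published earlier, so cell line and array batch cannot be told apart.

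Imprinted genes lie in clusters, each governed by a DNA region methylated on one parental copy, and a cluster usually holds genes of both parental classes. Many of them set fetal growth: as a rule of thumb, paternally expressed genes promote it and maternally expressed ones restrain it. Several stand high in embryonic tissues and low after birth. In the kidney the best known case is Cdkn1c, a cyclin-dependent kinase inhibitor whose loss disturbs the growth of the medulla.

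Dlk1 and Meg3, neighbours on chromosome 12 with opposite parental classes, had the 2 largest falls in bud tip against mesenchyme, and Calcr on chromosome 6 was the member that rose. The 250 bases before the start of each are shown because the listed members of a cluster moved together at one and apart at another. They are from RefSeq on build GRCm38.p6, each read 5′ to 3′ on the strand of the gene, with CpG dinucleotides, the sites of DNA methylation, in capitals. The Dlk1 window is chr12:109452573-109452822 on the plus strand, that of Meg3 is chr12:109540746-109540995 on the plus strand, and that of Calcr is chr6:3764714-3764963 on the minus strand. Meg3 and Calcr have 2 starts each in the table, and the outermost is shown.
Dlk1: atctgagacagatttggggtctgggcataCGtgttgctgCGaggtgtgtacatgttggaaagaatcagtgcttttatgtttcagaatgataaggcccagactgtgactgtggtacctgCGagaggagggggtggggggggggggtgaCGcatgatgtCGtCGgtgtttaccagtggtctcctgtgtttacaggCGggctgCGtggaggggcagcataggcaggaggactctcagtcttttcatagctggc
Meg3: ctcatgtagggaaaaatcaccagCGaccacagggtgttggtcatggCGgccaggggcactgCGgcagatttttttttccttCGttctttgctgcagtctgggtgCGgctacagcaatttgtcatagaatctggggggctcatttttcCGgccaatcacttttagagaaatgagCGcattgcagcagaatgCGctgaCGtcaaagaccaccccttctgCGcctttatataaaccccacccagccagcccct
Calcr: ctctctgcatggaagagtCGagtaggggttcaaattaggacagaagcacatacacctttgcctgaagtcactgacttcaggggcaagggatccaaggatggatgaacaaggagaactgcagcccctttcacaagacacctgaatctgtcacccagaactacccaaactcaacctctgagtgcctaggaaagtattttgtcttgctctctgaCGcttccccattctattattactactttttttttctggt
The Dlk1 window held 8 CpG, that of Meg3 10 and that of Calcr 2. RefSeq promoters were found for 30 of the 37 genes, 43 in all, and the median number of CpG in them was 10, against 6 over all 32851 promoters of the table. The letters TGCCGC, which mark the core of ZFP57 sites at imprinted regions, were searched on both strands and were in 7 of the 43 promoters (16.3%), against 8.68% of all promoters. The Meg3 window shown above has 1 such match. The letters GGGGCCCC, a GC-rich palindrome, which read the same on both strands, were in 3 of the 43 (6.98%), against 0.889% of all. A match is a description of the letters and not of a bound site. Methylation was not measured.

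Values below are log2 of the deposited intensity, and a difference of 1 is a doubling. The 33 measured members had 86 probe sets: 16 genes had 1 and 17 had several. For the latter the brightest probe set on average over the arrays was used, and the others are described with the gene. The median probe set of a tissue array read between 5.51 and 5.62, and that of mIMCD-3 read 5.40. The replicates correlated at 0.994 in mesenchyme, 0.997 in stalk and 0.990 in tip across probe sets. Over the members, the difference between the replicates of a group had a standard deviation of 0.36 for tip, 0.25 for mesenchyme and 0.15 for stalk, so bud tip was the least precise group.

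**Figure D1:**
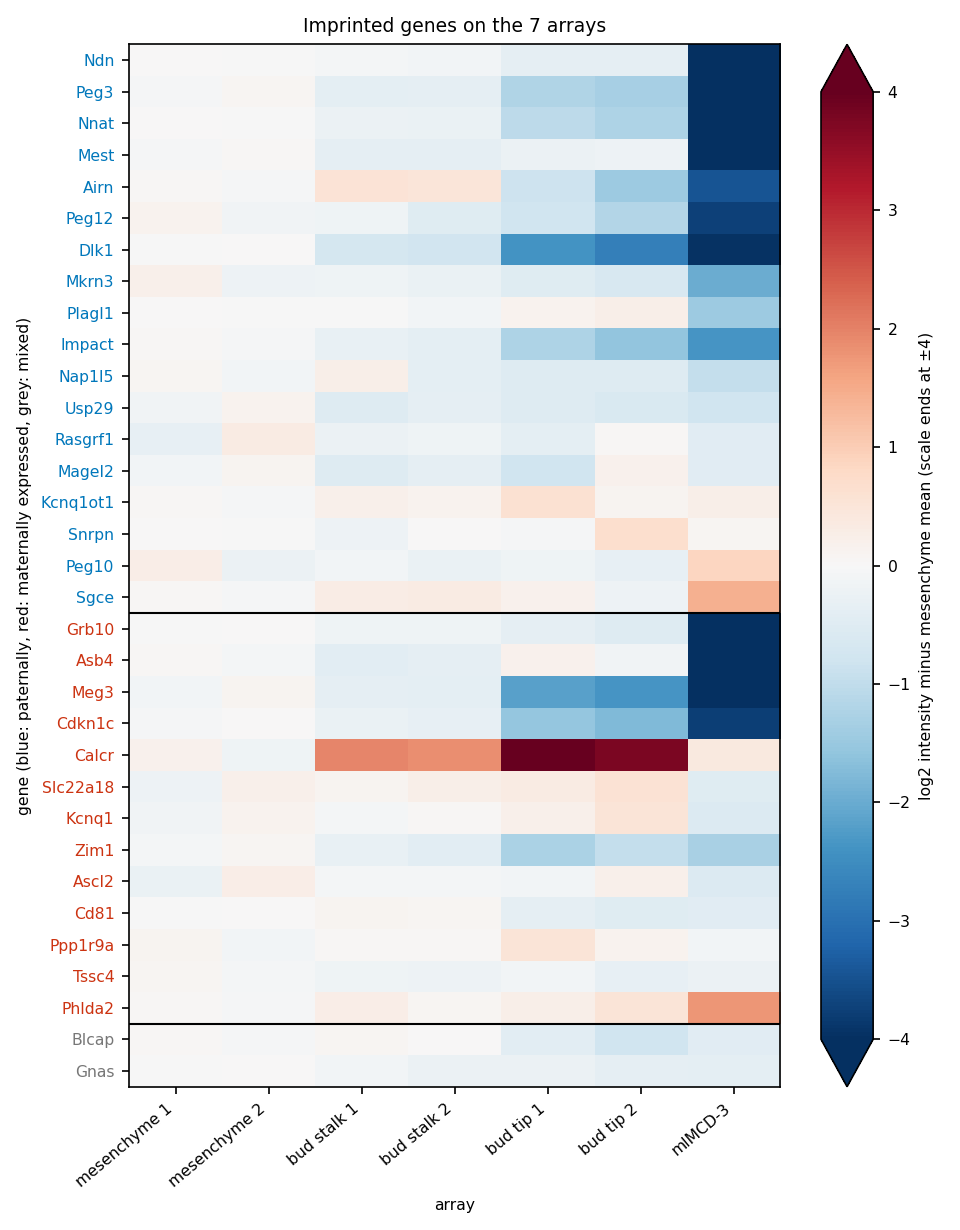
Colour shows the log2 intensity of each of the 33 imprinted genes on each of the 7 arrays minus the mean of the 2 mesenchyme arrays of that gene, on a scale that ends at 4 units either way. Rows are split by parental class, the bud tip columns are blue for genes such as Dlk1 and Meg3 and red for Calcr, and the mIMCD-3 column is darkest for genes such as Ndn, Peg3, Nnat, Mest, Grb10 and Asb4.

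The 3 tissue contrasts were tested with limma in 1 fit of the 6 tissue arrays, with p-values adjusted by the Benjamini-Hochberg method over all 18193 genes and a call at an adjusted p under 0.05. The arrays of a group carry the numbers 1 and 2, and where a second fit with that number as a block changes a call, its adjusted p is given too. Each pair of contrasts shares a group of arrays, so their values are given side by side and are not independent of each other. The members and lists were chosen with earlier results of these data known. The shares set beside those of all genes, here and for mIMCD-3, are therefore descriptions and not tests. The set of all genes was not matched to the members for brightness.

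Between bud stalk and mesenchyme, 2 of the 33 imprinted genes passed the test. Calcr, the calcitonin receptor, was higher in stalk, Dlk1, a transmembrane relative of the Notch ligands, was lower, and the other 31 were not called. The 1 gene higher is 3.03% of the members, where 4.3% of all genes were called higher, and the 1 gene lower is again 3.03%, where 1.24% of all genes were called lower. Each share rests on 1 gene. The median difference was -0.17 over the members and -0.04 over all genes, and 24 of 33 members lay below 0, as did 58.2% of all genes.

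Bud tip and mesenchyme differed at 12 of the 33. The genes lower in tip were Dlk1, Meg3, Peg3, Cdkn1c, Zim1, Nnat, Impact, Usp29, Peg12, Airn and Blcap, with differences of -2.55 to -0.56, and Calcr was higher. The 11 lower genes are 33.3% of the members, where 8.37% of all genes were called lower. The 1 higher gene is 3.03%, where 7.38% of all genes were called higher. The median difference was -0.31 over the members and 0.01 over all genes. With the replicate number as a block, 16 members were lower, where 12.8% of all genes were, and 3 higher (Calcr, Slc22a18 and Kcnq1), where 11.2% of all genes were.

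Bud tip and bud stalk, the 2 parts of the same epithelium, differed at 11 of the 33. Genes lower in tip were Dlk1, Meg3, Peg3, Cdkn1c, Zim1, Nnat, Impact, Airn, Cd81 and Blcap, and Calcr was higher. The 10 lower genes are 30.3% of the members, where 6.97% of all genes were called lower, and the 1 higher gene is 3.03%, where 2.86% of all genes were called higher. The median difference was -0.13 over the members and 0.07 over all genes. With the replicate block, 11 members were lower, where 11.7% of all genes were, and 3 higher (Calcr, Kcnq1 and Asb4), where 8.92% of all genes were.

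By parental class, 7 of 18 paternally expressed genes (38.9%) and 3 of 13 maternally expressed genes (23.1%) were lower in tip than in mesenchyme. Over all genes the share was 8.37%. Higher were 0 of 18 and 1 of 13 (Calcr, 7.69%), where 7.38% of all genes were. The median difference was -0.45 in the paternal class and 0.02 in the maternal class. Against stalk the counts lower were 5 of 18 and 4 of 13, where 6.97% of all genes were, with medians of -0.30 and 0.12. The difference between the classes was not tested. Both classes held genes with falls of more than 2 units, Dlk1 on the paternal side and Meg3 on the maternal side.

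**Figure D2:**
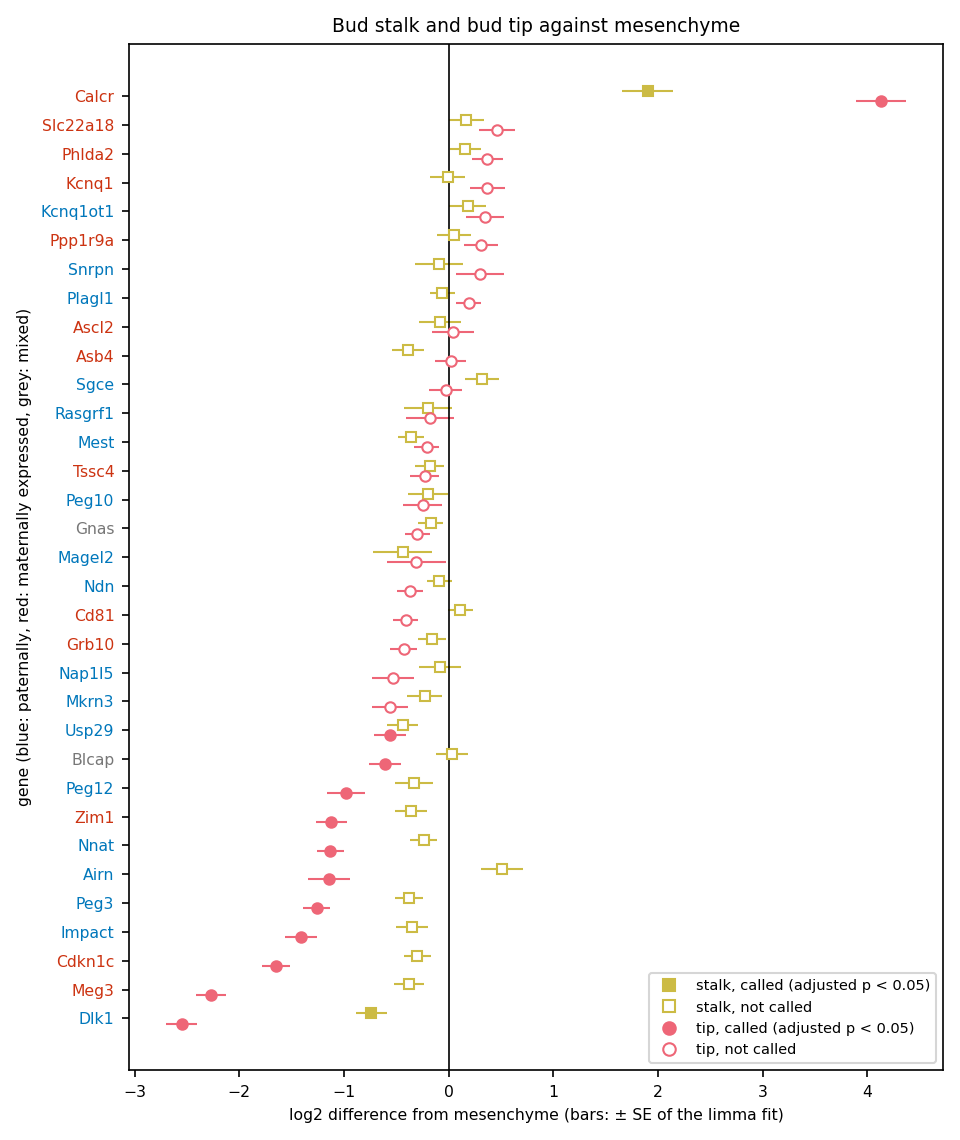
Points are log2 differences from mesenchyme for bud stalk (squares) and bud tip (circles), with bars of 1 standard error of the limma fit, for the 33 imprinted genes ordered by the tip difference. Filled symbols passed the test: in tip 11 genes to the left of 0 and Calcr at 4.13, and in stalk Dlk1 at -0.74 and Calcr at 1.90.

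Markers of other cell types differed between the same groups, and in bulk RNA fewer cells of a type and less RNA per cell cannot be told apart. Of 7 measured markers of renal stroma, 7 were lower in tip than in mesenchyme and 7 lower in tip than in stalk. Their summed intensity was 16422 to 17052 in mesenchyme, 15949 to 16401 in stalk, 1927 to 2376 in tip and 1188 in mIMCD-3. In stalk against mesenchyme 2 of the 7 were lower, Foxd1 (-1.18) and Aldh1a2 (-0.83), and the other 5 were not called, so the like sums of those tissues do not mean a like level of each marker. The 8 nephron progenitor markers summed to 7659 to 8328 in mesenchyme, 2068 to 2139 in stalk, 849 to 1051 in tip and 881 in mIMCD-3. The 7 bud epithelium markers went the other way, from 387 to 442 in mesenchyme through 11882 to 11976 in stalk to 17944 to 19466 in tip, and read 14838 in mIMCD-3. Markers of ureteric mesenchyme and muscle summed to 1280 to 1434 in mesenchyme, 2314 to 2650 in stalk, 331 to 354 in tip and 232 in mIMCD-3. In stalk against mesenchyme 1 of the 6 was higher, Tbx18 (1.41), and 1 lower, Tagln (-0.82), and the other 4 lay below 0 without a call.

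Endothelial markers, 7 of 7 lower in tip than in either other tissue, summed to 2461 to 2764 in mesenchyme, 1657 to 1701 in stalk and 645 to 669 in tip. Erythroid markers, 5 measured of 6, summed to 23731 to 24211, 17794 to 18103 and 9623 to 9893 in that order. Myeloid markers summed to 827 to 940, 541 to 557 and 292 to 329. Of the 7, 5 were lower and 1, Ptprc, was higher (1.22) in tip than in mesenchyme. Markers of neurons and neural crest, 5 measured of 7, summed to 491 to 519, 289 to 295 and 243 to 260. Of the 5, 2 were lower in tip than in mesenchyme, Stmn2 (-2.50) and Elavl4 (-2.20). Sox10 (-0.43), Elavl3 (-0.06) and Tubb3 (0.39) were not called. In mIMCD-3 these 4 lists summed to 199, 154, 233 and 166. The tip markers marked the tip, at 5172 to 6802 against 1195 to 1368 in stalk and 864 to 956 in mesenchyme, and summed to 221 in mIMCD-3. The list of stalk markers did not single out the stalk: it summed to 6604 to 6614 there, to 13453 to 13953 in tip, to 350 to 366 in mesenchyme and to 2120 in mIMCD-3. In bud these sums rest largely on Calb1, with mean log2 values of 12.53 in stalk and 13.65 in tip. Calb1 was the 1 stalk marker called higher in tip than in stalk, and none was called lower. The part of these cell types in the differences of the imprinted genes was not tested.

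Dlk1 and Meg3 share a domain, and both fell in bud tip. Dlk1 read 9.15 and 9.17 in mesenchyme, 8.45 and 8.40 in stalk, 6.78 and 6.44 in tip and 5.21 in mIMCD-3. The groups do not overlap, and the order runs from mesenchyme through stalk and tip to the cell line. The difference of tip from mesenchyme was -2.55 ± 0.15 (SE), a 5.86-fold fall (limma, adjusted p = 2.04e-05), and that from stalk was -1.81 ± 0.15 (adjusted p = 0.000253). Stalk was lower than mesenchyme by -0.74 ± 0.15 (adjusted p = 0.0282). That last call was lost on leaving out any 1 of the 4 arrays compared, with adjusted p of 0.122 and 0.15 without mesenchyme replicate 1 and 2 and of 0.175 and 0.21 without stalk replicate 1 and 2. A second, dim Dlk1 probe set stayed between 4.08 and 4.64 on all 7 arrays. With the mean of both, the tip differences shrank to -1.25 from mesenchyme (adjusted p = 0.000198) and -0.74 from stalk (adjusted p = 0.005).

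Meg3, a long noncoding RNA made from the maternal copy, read 10.82 and 11.03 in mesenchyme, 10.56 and 10.53 in stalk, 8.75 and 8.56 in tip and 5.94 in mIMCD-3. Tip lay clear of both other tissues, and stalk lay just below mesenchyme. Tip was lower than mesenchyme by -2.27 ± 0.14 (limma, adjusted p = 2.55e-05), a 4.81-fold fall, and lower than stalk by -1.89 ± 0.14 (adjusted p = 0.000158). Stalk minus mesenchyme was -0.38 ± 0.14 and was not called (adjusted p = 0.258). Meg3 has 11 probe sets. Of them 5 differed by -2.91 to -1.45 between tip and mesenchyme, and the other 6, which read 3.97 to 6.49 over all arrays, differed by -0.76 to 0.02. With the mean of the 11, tip differed by -1.09 from mesenchyme (adjusted p = 0.000422) and by -0.87 from stalk (adjusted p = 0.00252). Which Meg3 transcripts the 6 match was not tested.

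The 3 members of the Peg3 domain were each lower in tip than in mesenchyme. Peg3, a paternally expressed zinc finger protein, read 12.48 and 12.61 in mesenchyme, 12.14 and 12.18 in stalk, 11.35 and 11.21 in tip and 4.88 in mIMCD-3. The tissue groups are separate and step down in that order, and the cell line lies far below them. The fall from mesenchyme to tip was -1.26 ± 0.13 (limma, adjusted p = 0.000348) and that from stalk to tip -0.88 ± 0.13 (adjusted p = 0.00428), while stalk minus mesenchyme was -0.38 (adjusted p = 0.197). Its other 2 bright probe sets gave -1.65 and -1.64 for tip minus mesenchyme, and 2 dim ones gave -0.24 each.

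Zim1, a maternally expressed zinc finger gene, read 5.63 and 5.77 in mesenchyme, 5.41 and 5.27 in stalk, 4.43 and 4.74 in tip and 4.41 in mIMCD-3. It sits near the median of the arrays in mesenchyme and between the median and the lower quartile in tip and in the cell line. Tip was lower than mesenchyme by -1.12 ± 0.15 (limma, adjusted p = 0.00164) and lower than stalk by -0.76 ± 0.15 (adjusted p = 0.0182). The second call was lost without stalk replicate 1 (adjusted p = 0.167) or stalk replicate 2 (0.0783), and the difference was -0.50 with an offset of 16 added to the intensities before log2 (0.0267).

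Usp29, of a family of enzymes that remove ubiquitin and paternally expressed, read 5.78 and 6.08 in mesenchyme, 5.42 and 5.57 in stalk, 5.40 and 5.33 in tip and 5.13 in mIMCD-3. Stalk and tip lie close together, and mesenchyme lies above both. Tip minus mesenchyme was -0.56 ± 0.15 (limma, adjusted p = 0.0382). This is a borderline call: it was lost without any 1 array except mesenchyme replicate 1, at adjusted p of 0.246 without mesenchyme replicate 2, 0.0818 without either stalk array, 0.0629 without tip replicate 1 and 0.102 without tip replicate 2. Of the domain, Peg3 alone was lower in mIMCD-3 than in bud by 1 unit or more.

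Among the 8 measured genes of the H19 and Kcnq1 domains, Cdkn1c stood apart. Cdkn1c read 12.01 and 12.08 in mesenchyme, 11.78 and 11.72 in stalk, 10.50 and 10.29 in tip and 8.29 in mIMCD-3. Mesenchyme and stalk were close, tip was below both, and the cell line was lower again. The difference of tip was -1.65 ± 0.13 from mesenchyme, a 3.14-fold fall (limma, adjusted p = 9.85e-05), and -1.36 ± 0.13 from stalk (adjusted p = 0.000619).

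Cd81, a tetraspanin of the cell surface, read 11.13 and 11.16 in mesenchyme, 11.26 and 11.23 in stalk, 10.79 and 10.66 in tip and 10.69 in mIMCD-3. The tip arrays lay below the other tissues by a small margin. Tip minus stalk was -0.52 ± 0.12 (limma, adjusted p = 0.0368) and tip minus mesenchyme -0.41 (adjusted p = 0.0626; 0.0461 without tip replicate 1 and 0.0204 with the replicate block). The call against stalk was lost without either mesenchyme array (0.0724), without stalk replicate 1 (0.328) or 2 (0.258), without tip replicate 2 (0.0794) and with the arrays centred on their medians (0.0578).

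With the probe set used for each gene and all 6 tissue arrays, the other 6 were not called in any tissue contrast without the replicate block. Phlda2, a maternally expressed gene that limits placental growth, had differences of 0.16 for stalk and 0.37 for tip from mesenchyme. Slc22a18, a transporter-like protein, had 0.17 and 0.46, and the potassium channel Kcnq1 had -0.01 and 0.37. With the block both were called higher in tip than in mesenchyme (limma, adjusted p = 0.0202 and 0.0396), and Kcnq1 also higher than in stalk (0.38, adjusted p = 0.0414). Without the block, Slc22a18 was called against mesenchyme with the mean of its 2 probe sets (0.56, limma, adjusted p = 0.043). It was also called with the more variable of them (0.67, limma, adjusted p = 0.0274). Kcnq1ot1, the antisense noncoding RNA that silences this domain on the paternal copy, had 0.18 and 0.35, the transcription factor Ascl2 had -0.08 and 0.04, and Tssc4 had -0.18 and -0.23. Kcnq1ot1 was called higher in tip than in mesenchyme without tip replicate 2 (0.60, limma, adjusted p = 0.0273). Its 6 probe sets ran from -0.14 to 0.64 for tip minus mesenchyme and from -0.27 to 1.08 for tip minus stalk. The most variable of them was called higher in tip than in stalk (1.08, limma, adjusted p = 0.0138).

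Nnat and Blcap overlap on chromosome 2, where Nnat, a small membrane protein of the endoplasmic reticulum, lies inside Blcap. Nnat read 11.52 and 11.50 in mesenchyme, 11.29 and 11.25 in stalk, 10.47 and 10.29 in tip and 4.09 in mIMCD-3. Replicates lay close together, and tip was below both other tissues. Its tip differences were -1.13 ± 0.13 from mesenchyme (limma, adjusted p = 0.000614) and -0.89 ± 0.13 from stalk (adjusted p = 0.0039). Blcap read 8.38 and 8.28 in mesenchyme, 8.40 and 8.33 in stalk, 7.90 and 7.54 in tip and 7.88 in mIMCD-3. Tip was lowest among the tissues, and the cell line lay within the range of tip. Its tip differences were -0.61 ± 0.15 from mesenchyme (adjusted p = 0.0345) and -0.64 ± 0.15 from stalk (adjusted p = 0.0398). Both Blcap calls were lost without mesenchyme replicate 1 (0.173 and 0.0601), mesenchyme replicate 2 (0.0976 and 0.0601), stalk replicate 1 (0.0709 and 0.268), stalk replicate 2 (0.0709 and 0.176) or tip replicate 2 (0.085 and 0.0928).

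Impact, a paternally expressed regulator of translation, read 9.24 and 9.16 in mesenchyme, 8.89 and 8.81 in stalk, 7.96 and 7.62 in tip and 6.85 in mIMCD-3. It steps down without overlap in the same order as Dlk1. Tip differed by -1.41 ± 0.15 from mesenchyme (limma, adjusted p = 0.000459) and by -1.05 ± 0.15 from stalk (adjusted p = 0.00389). Its other 2 probe sets were dimmer and gave -0.33 and -0.17 against mesenchyme and -0.37 and 0.16 against stalk. With the mean of its 3 probe sets the difference from mesenchyme was -0.64 (adjusted p = 0.00723), and that from stalk was -0.42 and was not called (adjusted p = 0.0614).

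Airn, the paternally expressed noncoding RNA that runs antisense to Igf2r and silences it, read highest in stalk and, among the tissues, lowest in tip. Airn read 7.37 and 7.29 in mesenchyme, 7.87 and 7.80 in stalk, 6.50 and 5.87 in tip and 3.88 in mIMCD-3. Stalk minus mesenchyme was 0.51 ± 0.20 and was not called (limma, adjusted p = 0.322), although it passed with either tip array left out (0.0417). Tip differed by -1.14 ± 0.20 from mesenchyme (adjusted p = 0.00693) and by -1.65 ± 0.20 from stalk (adjusted p = 0.00189). The 5 probe sets did not move together: tip minus mesenchyme ran from -1.14 to 0.60 and tip minus stalk from -1.65 to 0.69. With their mean, neither tip call remained, at -0.13 (adjusted p = 0.652) and -0.40 (adjusted p = 0.111). The array annotation also holds 1 probe set listing Airn with Igf2r, which was not used.

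In the Snrpn domain, Peg12 was the 1 of 5 called. Peg12, an intronless gene of the Frat family, read 6.83 and 6.57 in mesenchyme, 6.52 and 6.23 in stalk, 5.90 and 5.54 in tip and 2.97 in mIMCD-3. Mesenchyme and stalk lie close together, and tip lies below both. Tip minus mesenchyme was -0.98 ± 0.18 (limma, adjusted p = 0.00812), and the call was lost without mesenchyme replicate 1 (-0.85, adjusted p = 0.0524). Tip minus stalk was -0.65 and not called (adjusted p = 0.0687), although it passed without tip replicate 1 (-0.83, adjusted p = 0.0378) and with the replicate block (0.00262). Mkrn3, a ubiquitin ligase known for its part in the timing of puberty, had -0.56 for tip minus mesenchyme (adjusted p = 0.0696), and was called without mesenchyme replicate 2 (-0.77, adjusted p = 0.0335) and with the block (0.00816). Magel2, of the MAGE family, had -0.31, and its tip arrays read 5.63 and 6.59. Snrpn, a splicing protein, had 0.30, with tip arrays at 5.97 and 6.69. For both genes the spread between the tip arrays was wider than the difference, and 1 array decided the call: Magel2 was called lower without tip replicate 2 (-0.78, limma, adjusted p = 0.0221), and Snrpn higher without tip replicate 1 (0.66, adjusted p = 0.0309; against stalk 0.75, adjusted p = 0.0272). Another 6 probe sets list Snrpn together with Snurf and were not used. Ndn, also of the MAGE family, had -0.37 ± 0.12 (adjusted p = 0.0831), and was called with the block (0.0293), with a trended, robust variance (7.99e-05), without the dimmest 40% of genes (0.035) and with an offset of 16 (0.0253).

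Calcr was the 1 member called higher, in all 3 contrasts. It encodes the calcitonin receptor, which signals through G proteins, lies in the Peg10 domain and is known to be maternally expressed in brain. Calcr read 3.67 and 3.34 in mesenchyme, 5.45 and 5.36 in stalk, 8.00 and 7.28 in tip and 3.91 in mIMCD-3. Mesenchyme and the cell line lay below the lower quartile of their arrays, stalk lay near the median and tip clearly above it. Tip was higher than mesenchyme by 4.13 ± 0.24 (limma, adjusted p = 2.01e-05) and higher than stalk by 2.23 ± 0.24 (adjusted p = 0.000929). Stalk was higher than mesenchyme by 1.90 ± 0.24 (adjusted p = 0.003). Since mesenchyme is at the dim end of the array, the size of its differences is not settled: with an offset of 16 before log2, tip minus mesenchyme was 2.98 (adjusted p = 9.44e-05) and stalk minus mesenchyme 1.09 (adjusted p = 0.0256). Each of the 3 calls held in the 13 alternatives that tested Calcr. The fourteenth leaves out the dimmest 40% of genes, and Calcr with them.

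The other 4 members of the Peg10 domain were not called in tissue. Asb4, an ankyrin repeat protein, read 9.63 and 9.50 in mesenchyme, 9.16 and 9.21 in stalk, 9.74 and 9.43 in tip and 3.56 in mIMCD-3. The tip arrays straddle those of mesenchyme, and stalk minus mesenchyme was -0.39 ± 0.15 (limma, adjusted p = 0.286). Tip minus stalk was 0.40 (adjusted p = 0.153; 0.0451 with the replicate block). Sgce, a sarcoglycan, had 0.32 for stalk and -0.03 for tip against mesenchyme. Its tip minus stalk of -0.35 passed only without tip replicate 1 (-0.54, adjusted p = 0.0457), of the arrays left out in turn. Ppp1r9a, an actin-binding scaffold protein, had 0.05 and 0.31. Its 5 probe sets ran from -0.25 to 0.74 for tip minus mesenchyme, and the most variable of them was called (0.74, limma, adjusted p = 0.0137). Peg10, a gene derived from a retrotransposon and needed in the placenta, had -0.20 and -0.25 and read between 3.53 and 4.11 on every tissue array.

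**Figure D3:**
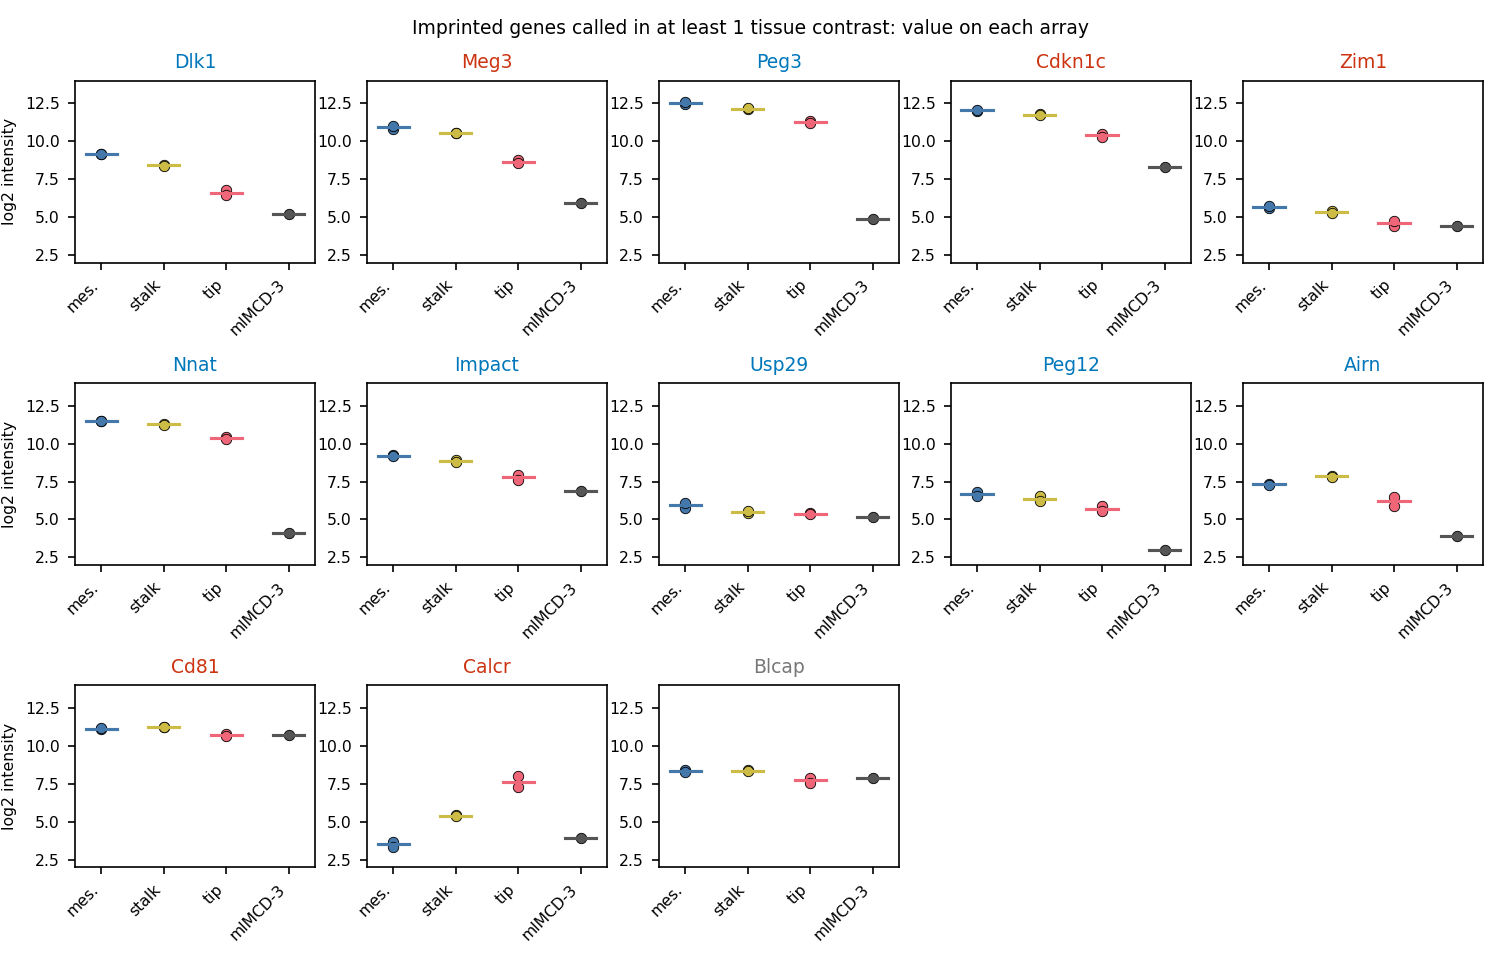
Log2 intensity of the 13 imprinted genes called in at least 1 tissue contrast, with 1 point per array and a line at the group mean, in mesenchyme (mes.), bud stalk, bud tip and mIMCD-3; gene names are blue for paternal, red for maternal and grey for mixed expression. Calcr climbs from mesenchyme to tip, and Dlk1, Meg3, Peg3, Cdkn1c, Nnat and Impact step down from mesenchyme to tip and further down in mIMCD-3.

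Several members were bright in all 3 tissues with at most small differences between them. Grb10, an adaptor that binds the insulin and insulin-like growth factor receptors and restrains their signal, read 12.44 and 12.49 in mesenchyme, 12.30 and 12.31 in stalk and 12.12 and 11.95 in tip. The steps run down in order, and tip minus mesenchyme was -0.43 ± 0.13 (limma, adjusted p = 0.0607). It was called with the replicate block (0.0208) and without tip replicate 1 (-0.51, adjusted p = 0.0372). Its other 2 probe sets gave -0.98 and -1.02, and with the mean of the 3 it was also called (-0.81, adjusted p = 0.00291). Mest, an enzyme of the hydrolase fold family, read 12.97 and 13.08, then 12.66 and 12.67, then 12.80 and 12.82 in the same order. Mesenchyme was highest, and stalk minus mesenchyme was -0.36 ± 0.12 (adjusted p = 0.204). With a trended, robust variance in limma this difference was called (adjusted p = 1.97e-05).

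Ndn read 11.92 and 11.89 in mesenchyme, 11.82 and 11.80 in stalk and 11.53 and 11.54 in tip. Plagl1, a zinc finger protein that regulates other imprinted genes, had differences of -0.06 for stalk and 0.19 for tip. Gnas, the alpha subunit of the stimulatory G protein, had -0.17 and -0.30. At the dim end, Nap1l5, of the nucleosome assembly protein family, had -0.08 and -0.53 (adjusted p = 0.145 for the latter, 0.0313 with the block), and Rasgrf1, an exchange factor for Ras, had -0.20 and -0.18.

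Against the ureteric bud, the mIMCD-3 array read lower at most imprinted genes. The difference is that of the 1 array from the mean of the stalk and tip group means. With 1 array it has no test, and a gene was counted as different by size alone, at 1 log2 unit or more. By that rule 15 of 33 members were lower (45.5%), where 9.33% of all genes were, and 3 were higher (9.09%), where 9.75% of all genes were. The median difference was -0.74 over the members and -0.05 over all genes, and 30 of 33 members lay below 0, as did 54.4% of all genes. mIMCD-3 read below all 6 tissue arrays at 23 of 33 members, as at 34.4% of all genes, and above all 6 at 3, as at 30.7% of all genes. The members were the brighter set in bud, with a median of 8.26 in stalk and 7.64 in tip. Over all genes these medians were 6.80 and 6.67. A gene at the dim end has little room to fall, so the shares are not of like sets.

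The 6 largest differences were at genes that were bright in every tissue. Grb10 read 4.02 in mIMCD-3 against a bud mean of 12.17, a difference of -8.15. Ndn read 3.85, a difference of -7.83, and Peg3 read 4.88, a difference of -6.84. Nnat read 4.09 (-6.73), Mest 6.61 (-6.13) and Asb4 3.56 (-5.83). The tissue arrays of these genes were given above, and each of the 6 lies far under the lowest of them. The readings of Ndn and Asb4 lay below the lower quartile of the mIMCD-3 array, which was 3.99, and those of Grb10 and Nnat lay just above it. At that brightness a reading sets no level for the RNA, so the folds, such as 284 for Grb10 and 227 for Ndn, are those of the RMA values and may be compressed.

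Other probe sets bear these differences out in part. The 3 of Grb10 gave -8.15, -6.25 and -2.91, and the least of them read 5.43 in mIMCD-3 against 7.94 to 8.70 in bud. The 5 bright probe sets of Ndn gave -7.96 to -4.74, the 3 bright ones of Peg3 gave -6.84 to -5.12, and the 2 of Asb4 gave -5.83 and -5.68. Nnat and Mest have 1 probe set each. The dim probe sets of Ndn and Peg3, which read 2.55 to 5.19 over all arrays, gave -0.69 to 0.00.

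Other members lower by size in mIMCD-3 were Meg3 (-3.66), Airn (-3.14), Peg12 (-3.08), Cdkn1c (-2.78), Calcr (-2.61), Dlk1 (-2.30), Mkrn3 (-1.59), Plagl1 (-1.50) and Impact (-1.48). Of these, Plagl1 still read 11.07, and Cdkn1c 8.29. The probe sets of a gene did not all fall alike. The difference ran from -4.38 to -0.27 over the 11 of Meg3 and from -3.14 to 0.04 over the 5 of Airn. It ran from -1.48 to 0.22 over the 3 of Impact and from -2.11 to 0.14 over the 3 of Plagl1. The second, dim Dlk1 probe set gave 0.05. By class, 10 of 18 paternally expressed (55.6%) and 5 of 13 maternally expressed genes (38.5%) were lower, against 9.33% of all genes; the difference between the classes was not tested. The Calcr value averages the unequal stalk and tip of the bud: mIMCD-3 at 3.91 lay under stalk by less than it lay under tip.

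Higher by size in mIMCD-3 were Phlda2 by 1.49, Sgce by 1.28 and Peg10 by 1.08. Phlda2 read 7.26 in the cell line against 5.58 to 6.02 on the bud arrays, and Sgce read 9.60 against 7.96 to 8.51. Peg10 read 4.71 against 3.53 to 3.73, below the median of its array. The 3 lay above all 6 tissue arrays. In the Peg10 domain the cell line thus read higher at Sgce and Peg10 and lower at Asb4 and Calcr, while Ppp1r9a differed by -0.29. With the probe set used for each, Gnas (-0.15), Cd81 (-0.30), Tssc4 (-0.03), Blcap (-0.16), Kcnq1ot1 (-0.02), Magel2 (-0.07) and Snrpn (-0.01) were close to bud. The 6 probe sets of Kcnq1ot1 did not move together and ran from -1.72 to 1.01. The Snrpn value rests on the 1 probe set that lists it alone. The other 8, namely Slc22a18, Kcnq1, Nap1l5, Zim1, Ascl2, Usp29, Ppp1r9a and Rasgrf1, ranged from -0.78 to -0.27.

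**Figure D4:**
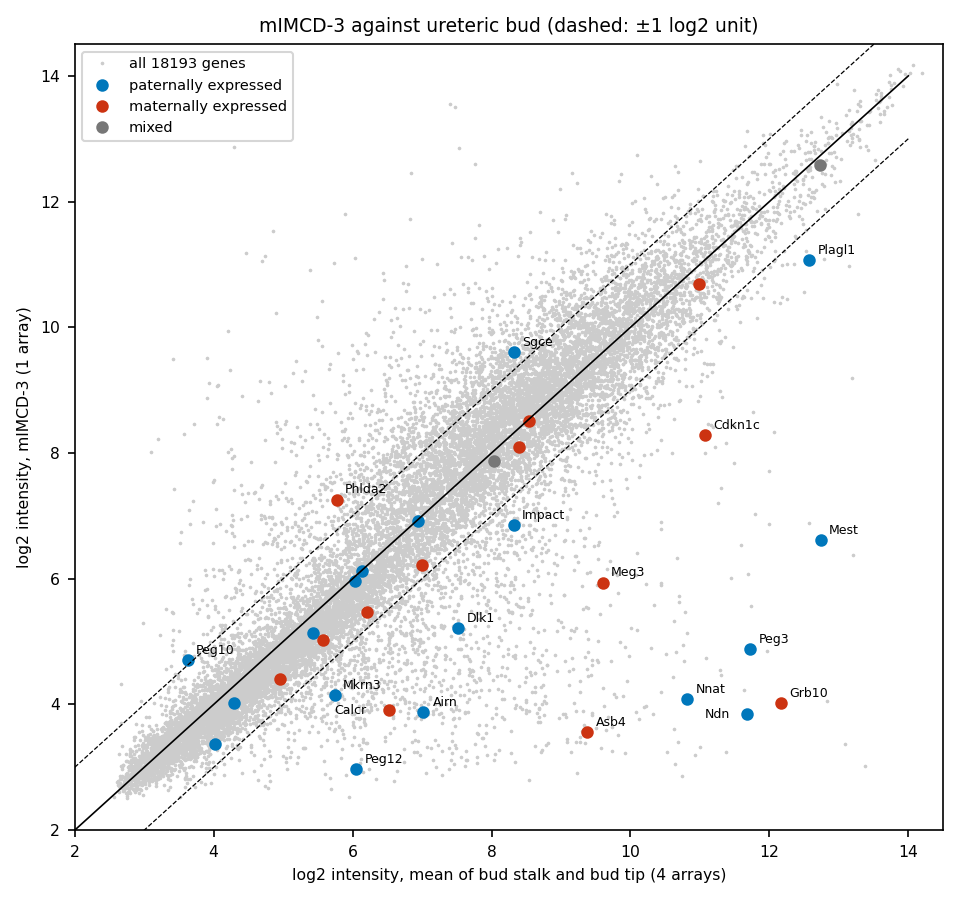
Each point is a gene, with its log2 intensity in bud (mean of stalk and tip, 4 arrays) on the horizontal axis and in mIMCD-3 (1 array) on the vertical axis, grey for all 18193 genes and coloured by parental class for the imprinted genes. The 15 labelled genes below the lower dashed line read at least 1 log2 unit less in mIMCD-3, and Phlda2, Sgce and Peg10 lie above the upper one.

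**Figure D5:**
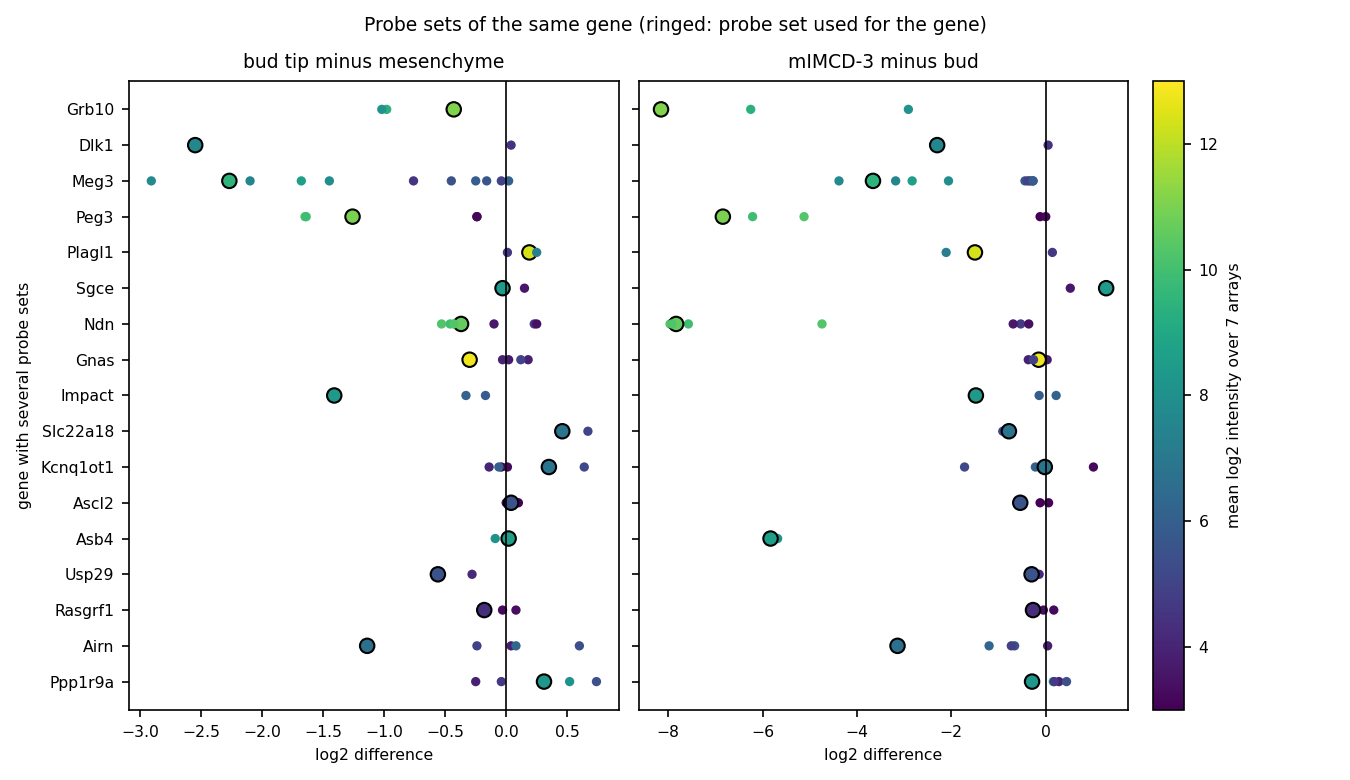
Log2 differences of every probe set of the 17 imprinted genes with several, for bud tip minus mesenchyme (left) and mIMCD-3 minus bud (right), coloured by mean log2 intensity, with the probe set used for the gene ringed. Bright probe sets of Peg3, Grb10 and Ndn fall on the same side of 0 in each panel, 5 of Meg3 lie far to the left and its other 6 near 0, most dark dim ones gather near 0, and those of Airn spread to both sides on the left.

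Of 24 listed proteins that set, keep or read imprints, among them DNA methyltransferases, zinc finger proteins and chromatin factors, 23 were measured. In tip 1 was higher than in mesenchyme, where 7.38% of all genes were, with a median difference of 0.03 over the list. With the replicate block 3 were higher and 2 lower, where 11.2% and 12.8% of all genes were. The 1 called without the block was Dnmt3b, a DNA methyltransferase that sets new methylation, at 1.49 ± 0.13 (limma, adjusted p = 0.000136). It was also higher than in stalk by 0.95 ± 0.13 (limma, adjusted p = 0.0028). Tet2, an enzyme that oxidises methylated cytosine, was lower in tip than in stalk by -0.72 ± 0.13 (adjusted p = 0.0115). Against stalk, Dnmt3b was the 1 higher and Tet2 the 1 lower of the 23, where 2.86% and 6.97% of all genes were. In mIMCD-3, 4 of the 23 were lower than in bud by size, where 9.33% of all genes were. There 1 was higher, where 9.75% of all genes were, and the median was -0.41.

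A further 40 imprinted genes outside the list of 37 were looked at in the same way, and 36 were measured. In tip against mesenchyme 6 were higher and 7 lower, where 7.38% and 8.37% of all genes were. In tip against stalk 2 were higher and 6 lower, where 2.86% and 6.97% of all genes were, and in stalk 5 were higher than in mesenchyme, where 4.3% of all genes were. With the replicate block, 6 were higher and 8 lower in tip against stalk, where 8.92% and 11.7% of all genes were. The medians were -0.09, 0.02 and -0.06. In mIMCD-3 against bud, 6 of the 36 were higher by size and 7 lower, where 9.75% and 9.33% of all genes were. The median there was -0.22. Igf2, the fetal growth factor made from the paternal copy next to H19, read 12.99 and 13.06 in mesenchyme, 12.90 and 12.92 in stalk, 12.21 and 12.22 in tip and 6.89 in mIMCD-3. Tip lay below both other tissues, and the cell line far below. Its tip differences were -0.81 ± 0.12 from mesenchyme (limma, adjusted p = 0.00263) and -0.69 ± 0.12 from stalk (adjusted p = 0.0095).

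Of the same 36, Dcn, the matrix proteoglycan decorin, had the largest fall in tip, by -2.56 ± 0.16 from mesenchyme (limma, adjusted p = 2.6e-05) and -2.78 ± 0.16 from stalk. Tfpi2, a protease inhibitor, was higher in tip than in mesenchyme by 2.32 ± 0.14, the chloride channel Ano1 by 1.56 ± 0.13 and Ampd3, an enzyme of purine metabolism, by 1.03 ± 0.24. In stalk, Ampd3 was higher than in mesenchyme by 1.23 ± 0.24 (adjusted p = 0.0256), Tfpi2 by 1.13 ± 0.14 (adjusted p = 0.00306), Slc38a4, an amino acid transporter, by 0.80 ± 0.13 (adjusted p = 0.0118) and Igf2r, the receptor that clears Igf2, by 0.80 ± 0.14 (adjusted p = 0.0138). Igf2r was lower in tip than in stalk by -0.70 ± 0.14 (adjusted p = 0.0164), as was the Airn probe set used here.

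Relatives of the imprinted genes that are not themselves imprinted moved both ways. Of 26 listed, 23 were measured: 6 were higher and 3 lower in tip than in mesenchyme, where 7.38% and 8.37% of all genes were, with a median of 0.02. Grb7 and Grb14, the relatives of Grb10, were higher in tip by 4.05 ± 0.15 (limma, adjusted p = 3.59e-06) and 2.89 ± 0.21 (adjusted p = 6.4e-05), where Grb10 was -0.43. Cdkn1a, of the same inhibitor family as Cdkn1c, was higher by 2.12 ± 0.13 (adjusted p = 2.59e-05), where Cdkn1c was lower by -1.65. Rasgrf2 was higher by 2.53 ± 0.23 (adjusted p = 0.000196) and the tetraspanin Cd9 by 2.33 ± 0.15, where Rasgrf1 and Cd81 were -0.18 and -0.41. Mkrn1 was higher by 1.08 ± 0.12, where Mkrn3 was -0.56. The 3 lower in tip than in mesenchyme were Sgcb (-1.13 ± 0.16), Magee1 (-1.03 ± 0.13) and Phlda3 (-0.49 ± 0.12). Their imprinted relatives Sgce, Magel2 and Phlda2 were -0.03, -0.31 and 0.37. Sgcb, Magee1 and Phlda3 were also lower in tip than in stalk, by -0.90, -1.15 and -0.60. These are differences of each gene on its own probe set, and the difference between relatives was not tested.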

How the data were processed

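Total RNA of 3 microdissected tissues (2 arrays each) and of mIMCD-3 (1 array) was hybridised to Affymetrix Mouse Genome 430 2.0 arrays. The deposited intensity values were calculated by the authors with RMA over all 7 arrays together, per the series' design text and the submitters' processing notes; the software version is not given in the sources used here. RMA gives no detection calls and compresses differences of dim genes. Intensities ran from 5.08 to 19587 and were converted to log2 here.

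Of 45101 probe sets, 64 are controls, 34945 list 1 gene, 932 list several and 9160 list none. Each of the 18193 genes was represented by its single-gene probe set with the highest mean over the arrays, and 99.1% of the genes were found in RefSeq. The tissues were fitted with limma 3.58.1 (R 4.3.3), lmFit and eBayes, with 3 residual degrees of freedom, two-sided, adjusted by Benjamini-Hochberg over all genes. Alternatives, 14 for each tissue contrast, varied the variance model, block, centring, filter, probe set rule, offset, groups fitted and arrays left out. The labels do not say that replicate numbers pair the arrays. The differences of replicate 1 minus 2 correlated across probe sets at 0.39 (mesenchyme and stalk), 0.57 (mesenchyme and tip) and 0.43 (stalk and tip), all over 0.1, so the number was used as a block in a second fit with 2 residual degrees of freedom. The test was checked on simulated data. Per the rule for naming genes, members called in a tissue contrast and the 6 with the largest mIMCD-3 difference get their value on each array, and up to 4 called genes per contrast are drawn on from the 3 further lists. The members, lists and marker sets were chosen with earlier results of these data known. Figures were drawn with matplotlib 3.10.9.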

Additional observations from a re-analysis of the deposited data

How the results depend on the processing

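In tip against mesenchyme, Dlk1, Meg3, Peg3, Cdkn1c, Nnat and Impact were called in all 14 alternatives. In tip against stalk this held for Dlk1, Meg3, Peg3, Cdkn1c and Nnat. Over 55 single-gene results with a test, 762 alternative values comprised 666 on the same side of the threshold, 54 newly past it, 37 no longer past it and 5 of opposite sign. The latter were Gnas with its most variable probe set (0.02 for stalk and 0.18 for tip, against mesenchyme), and 3 genes whose tip arrays differ: leaving out 1 array gave -0.78 to 0.17 for Magel2 and -0.06 to 0.66 for Snrpn in tip minus mesenchyme, with the extremes from the tip arrays, and -0.08 to 0.42 for Kcnq1ot1 in tip minus stalk. With the replicate block the 1 member higher became 3 in tip against mesenchyme and 3 in tip against stalk, and 16 and 11 were lower; every call of a member without the block was kept, and no call changed beyond those named with the genes. The count higher became 2 in stalk against mesenchyme with only the 2 groups compared. It was 2 and 4 in tip against mesenchyme and against stalk with a trended, robust variance. That variance called 6 lower in stalk than in mesenchyme, namely Dlk1, Cdkn1c, Gnas, Meg3, Mest and Peg3. It added calls of Cd81, Gnas, Grb10, Mest, Ndn and Plagl1 in tip against mesenchyme. Against stalk it added Asb4, Grb10, Mest, Ndn, Peg12 and Plagl1. The count higher was 3 and 2 with the most variable probe set, and 2 against mesenchyme with the mean of all probe sets. Without the dimmest 40% of genes, which drops Calcr, it was 0 in the 3 tissue contrasts by limma, and 1 in mIMCD-3 against bud. Leaving out 1 array gave 1 to 2 higher and 0 to 1 lower in stalk, 1 to 2 and 9 to 12 in tip against mesenchyme, 1 to 2 and 7 to 12 in tip against stalk, and 3 and 15 in mIMCD-3. Over the alternatives the mIMCD-3 difference ran from -8.28 to -5.77 for Grb10, -7.97 to -4.70 for Ndn, -7.28 to -3.66 for Peg3, -7.18 to -5.79 for Nnat, -6.21 to -5.92 for Mest and -6.03 to -4.62 for Asb4. With 2 arrays a group, differences well under 1 unit often miss the threshold, and a member not called is not shown to be equal. In simulated stalk against mesenchyme data over 18193 genes, 51% of changes of 1 unit were recovered and 93% of changes of 2 units. The shares were 47% and 91% in tip against mesenchyme, and 55% and 86% in tip against stalk. The simulated noise was independent between arrays and had the same spread in each group. The real arrays differ in both, so these shares hold for the simulation only.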
